A study of Mus musculus with 6 samples.

Results

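The α-crystallins and the other small heat shock proteins of the mouse lens were followed in whole lenses of mice without Cd24a, the gene of a lipid-anchored cell surface glycoprotein, and of wild-type mice. The 9 genes were taken by symbol from the deposited count table of 55416 genes and are Cryaa, Cryab, Hspb1, Hspb6, Hspb8, Hspb2, Hspb3, Hspb7 and Hspb11. Of these, 8 had enough reads to be tested, among 11474 genes in all, and Hspb7 had no read in any library. By the files, Cryaa (ENSMUSG00000024041) lies on chromosome 17, Cryab (ENSMUSG00000032060) and Hspb2 (ENSMUSG00000038086) on 9, and Hspb1 (ENSMUSG00000004951) and Hspb8 (ENSMUSG00000041548) on 5. Hspb6 (ENSMUSG00000036854) lies on chromosome 7, Hspb3 (ENSMUSG00000051456) on 13, and Hspb7 (ENSMUSG00000006221) and Hspb11 (ENSMUSG00000063172) on 4. In short, Hspb1 was about 50.6% as abundant in knockout lenses as in wild-type lenses. Cryaa and Cryab were at 94.8% and 94.5% of the wild-type level and did not pass the test. The 5 other tested genes were far less abundant than Hspb1 in both groups.

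Small heat shock proteins share a conserved α-crystallin domain, assemble into oligomers and hold partly unfolded proteins in solution without using ATP. In the lens, αA-crystallin (Cryaa, also named HSPB4) and αB-crystallin (Cryab, HSPB5) build a joint oligomer that makes up a large part of the soluble protein of the fibre cells, which lose their organelles and cannot replace damaged protein. Mutations in either gene are known causes of cataract. The other members are best known from muscle and from stressed cells, and Hspb11 is the exception by structure, since its product IFT25 is a subunit of the intraflagellar transport machinery of cilia.

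The knockout group held 3 samples of mice whose germline lacks Cd24a, labelled strain C57BL/6, and the wild-type group held 3 samples from animals labelled C57BL/har, so strain and genotype cannot be told apart. Each sample was made of 2 microdissected lenses and was called a biological replicate by the submitters. Sample labels give the mice an age of 8 weeks, where the text on the series has 7. Total RNA was depleted of ribosomal RNA and sequenced as stranded single-end libraries, each on 4 lanes, and reads were counted per gene. Because whole lenses were used, fewer cells of a type and less RNA per cell cannot be told apart in any value below.

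Libraries held 5384542 to 5966090 counts in the knockout group and 6262742 to 7302951 in the wild-type group. Cd24a had 71, 58 and 45 counts in knockout libraries, against 20656, 18730 and 17514 in wild-type libraries, so every library followed its label. Replicate 3 of the knockout and of the wild-type group had 2466 and 2191 Xist reads and none of Ddx3y, while the other libraries had reads of Ddx3y and at most 4 of Xist. In those 4 libraries alone the log2 fold changes of the members were -0.15 for Cryaa, -0.16 for Cryab, -1.12 for Hspb1, 0.03 for Hspb6, -1.27 for Hspb8, 0.02 for Hspb2, -0.23 for Hspb3 and 0.21 for Hspb11, and Hspb1 was the 1 member that passed the test. Of 11 genes that mark the lens, 10 were tested, from Foxe3 at 21.8 ± 0.71 CPM in knockout and 21.2 ± 2.51 CPM in wild-type lenses to Bfsp1 at 15067 ± 1144 and 16107 ± 410 CPM (SD, n = 3 each). Lim2 was the exception, with 0 counts in every library. CPM is the count scaled to library size with TMM factors.

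The 8 detected genes spanned more than 4 orders of magnitude per length, on the FPKM scale (CPM per kilobase of exon). Cryaa was at 37071 ± 2167 FPKM in knockout and 39115 ± 1893 FPKM in wild-type lenses, Cryab at 24170 ± 1611 and 25573 ± 1224 FPKM, and Hspb1 at 408 ± 48.9 and 806 ± 86.5 FPKM (SD, n = 3 each). Among the tested genes Cryaa ranked 2, Cryab 6 and Hspb1 41 by mean FPKM. A wide gap followed. Hspb2 was at 14.8 ± 1.13 FPKM in knockout and 14.2 ± 0.62 FPKM in wild-type lenses, and Hspb11 at 10.5 ± 0.66 and 9.41 ± 1.18 FPKM. Hspb3 stood at 4.77 ± 0.40 and 4.90 ± 1.78 FPKM, Hspb6 at 2.64 ± 0.20 and 2.42 ± 0.60 FPKM, and Hspb8 at 1.11 ± 0.45 and 2.07 ± 0.57 FPKM. By mean FPKM these ranked 1453 (Hspb2), 2086 (Hspb11), 3951 (Hspb3), 6201 (Hspb6) and 7796 (Hspb8) among the 11474 tested genes. The order was the same in both groups, and the ranges of neighbouring genes did not overlap, except those of Hspb6 and Hspb8 in wild-type lenses. Hspb7, known from heart muscle, had 0 counts in all 6 libraries, which allows up to 0.062 FPKM in the knockout group and 0.055 FPKM in the wild-type group (3 counts over the group, counting error only). The lens marker Lim2 also had 0 counts in every library, so a 0 in this table may not reflect the level in the tissue.

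**Figure D1:**
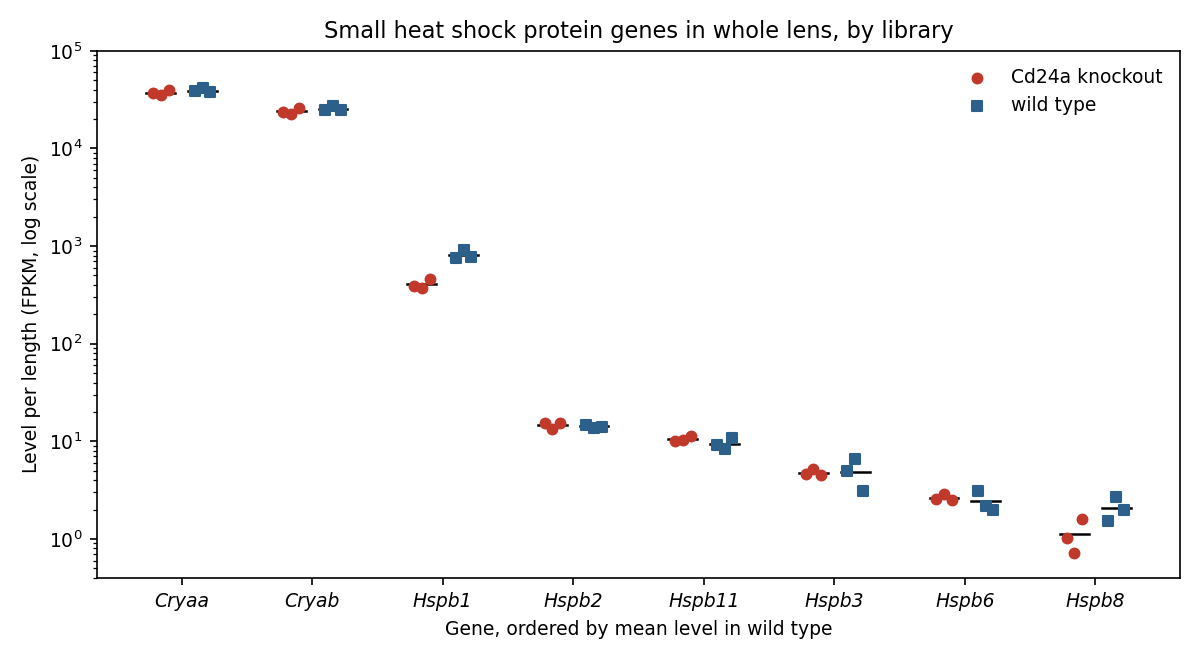
Level per length (FPKM, log axis) of the 8 detected genes in each library, knockout as red circles left of wild type as blue squares, with black lines at the group means. The knockout and wild-type points of Hspb1 are apart, those of every other gene overlap, and Hspb7 is left out because it had no reads.

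Knockout and wild-type lenses were compared over all genes with the quasi-likelihood test of edgeR, and genes with a Benjamini-Hochberg adjusted p up to 0.05 were called. This called 861 of 11474 genes (7.5%), 514 lower (4.48%) and 347 higher (3.02%) in the knockout. With library size alone as the scaling, 1008 genes were called higher and 336 lower, and the median over all tested genes moved to a log2 value of 0.11, against 0.004 with TMM. Of the 8 tested members, 1 was called, Hspb1, which was lower, and 0 were called higher. DESeq2, which called 5.0% of all genes, and limma-voom, which called 7.3%, also called Hspb1 and no other member. Unadjusted p was up to 0.05 for 2 members, both lower, where 20.2% of all genes reached that. The groups did not overlap for that 1 member, where 24.4% of all tested genes did not overlap. The members' median log2 fold change was -0.06, and 5 were below 0 and 3 above.

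**Figure D2:**
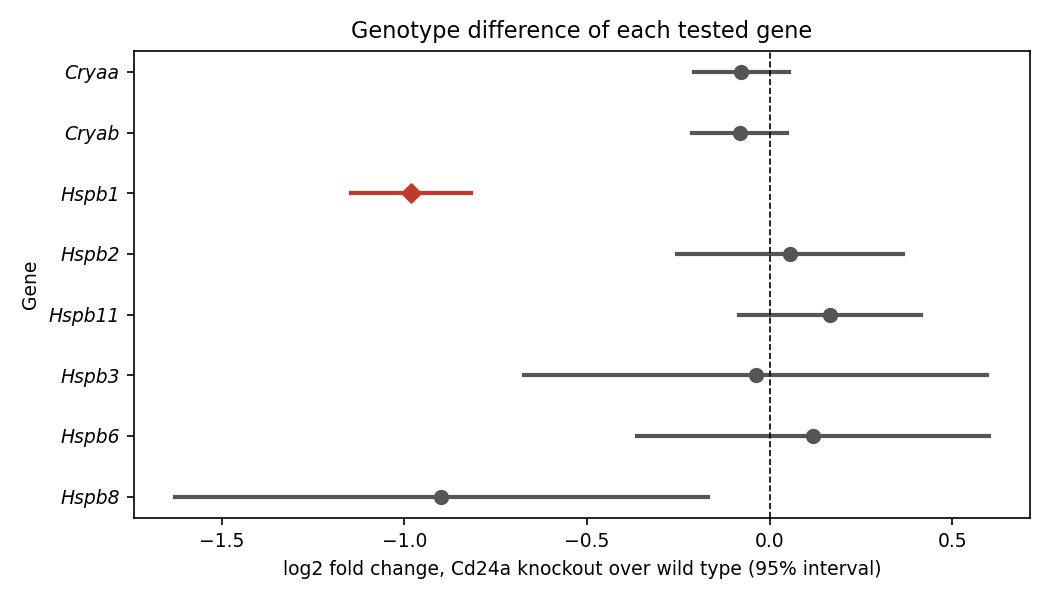
Fitted log2 fold change of each tested gene, knockout over wild type, with its 95% interval, where the red diamond marks the called gene. The interval of Hspb1 runs from -1.15 to -0.82, and those of Cryaa and Cryab are narrow and include 0.

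Cryaa, the subunit that is largely restricted to the lens, had 76997, 72443 and 81438 CPM in knockout libraries, against 79928, 85611 and 78067 CPM in wild-type libraries. The groups overlapped, since knockout replicate 3 lay above the wild-type replicates 1 and 3. The log2 fold change was -0.08 (SE 0.06, edgeR adjusted p = 0.56), with a 95% interval of the knockout level from 86.6% to 103.7% of the wild-type level.

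Cryab, the subunit that is also made in heart, muscle and stressed cells, had 35290, 33628 and 38325 CPM in knockout libraries, against 36707, 39911 and 36850 CPM in wild-type libraries. Here too knockout replicate 3 was above the wild-type replicates 1 and 3. The log2 fold change was -0.08 (SE 0.06, edgeR adjusted p = 0.53), with a 95% interval from 86.4% to 103.4% of the wild-type level. For both genes the log2 fold change was 0.03 when library size alone was used. Together they took 11.6%, 11.3% and 11.99% of the counts in knockout libraries, against 11.2%, 11.7% and 11.3% in wild-type libraries.

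The balance of the Cryaa and Cryab transcripts was nearly constant, and protein was not measured. The ratio of Cryaa to Cryab counts per length was 1.554, 1.535 and 1.514 in knockout libraries and 1.551, 1.528 and 1.509 in wild-type libraries. The means were 1.534 ± 0.020 and 1.530 ± 0.021 (SD, n = 3 each; exact permutation test, two-sided, p = 0.70, where 3 against 3 libraries cannot give a p below 0.10). This ratio does not depend on how libraries are scaled, while the CPM of each gene had coefficients of variation of 5.84% and 6.66% in knockout and 4.84% and 4.79% in wild-type lenses for Cryaa and Cryab in that order.

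Both genes lie over other transcription units. The antisense gene deposited as Gm50222 is named AC090881.2 in the GENCODE M21 annotation (GRCm38). There it runs opposite Cryaa and shares 273 exonic bases with it. It had 8078, 8229 and 7199 counts in knockout libraries, against 9777, 9070 and 7934 in wild-type libraries. That is 1.76% ± 0.13 of the Cryaa counts in knockout and 1.69% ± 0.051 in wild-type lenses (SD, n = 3 each), and its log2 fold change was -0.01 (SE 0.06, edgeR adjusted p = 0.93). The libraries were stranded, but the sources used here do not say whether counting used the strand, and without it reads from the shared bases cannot be assigned to one of the genes.

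Hspb1, also known as Hsp25 in mouse, is induced by heat shock factors, stabilises actin filaments and is phosphorylated by MAPKAPK2 below the kinase p38. It was the only member that was called. Hspb1 had 401, 383 and 478 CPM in knockout libraries, against 769.6, 934 and 791 CPM in wild-type libraries. Every knockout library was below every wild-type library by a wide margin, on 2230 to 2601 counts in the knockout and 4890 to 5915 in the wild type. The log2 fold change was -0.98 (SE 0.08, edgeR adjusted p = 4.35e-08), and the 95% interval of the knockout level was 45.2% to 56.7% of the wild-type level.

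Set against Cryab within each library, Hspb1 stood at 1.63%, 1.64% and 1.79% of the Cryab level per length in knockout libraries, against 3.01%, 3.36% and 3.08% in wild-type libraries. The mean log2 difference of that ratio was -0.90 (exact permutation test, two-sided, p = 0.10, the smallest this design allows), and all 3 knockout libraries were below all 3 wild-type libraries.

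**Figure D3:**
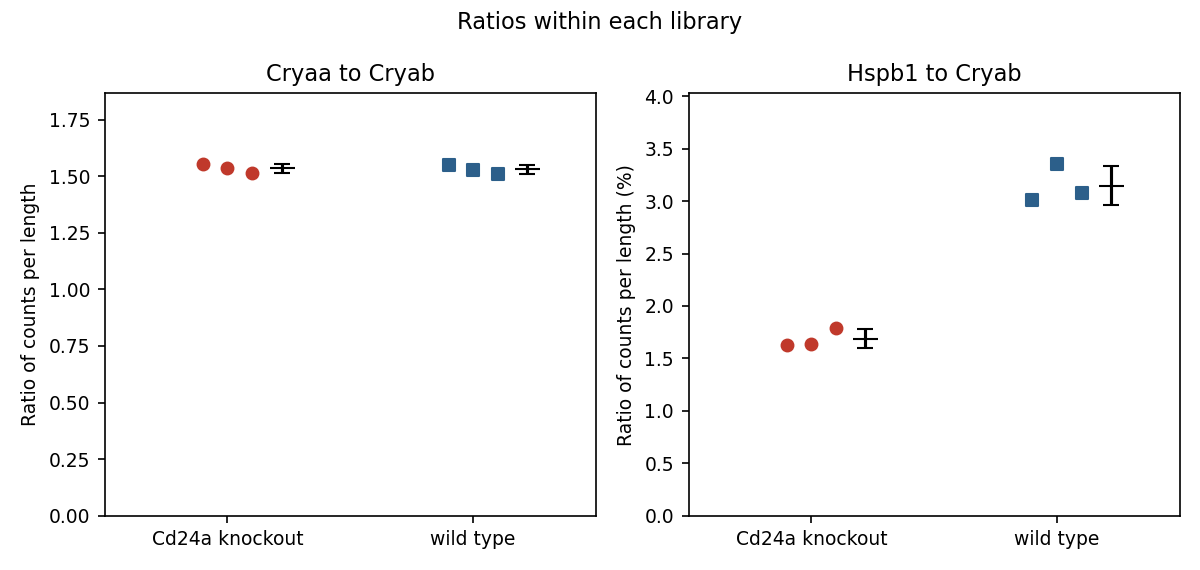
Ratios of counts per length within each library, knockout as red circles left of wild type as blue squares, with black bars for the mean and SD of 3 libraries. The Cryaa to Cryab ratio (left) is between 1.51 and 1.55 in all 6 libraries, while the Hspb1 to Cryab ratio (right, in percent) is 1.63 to 1.79 in knockout and 3.01 to 3.36 in wild-type libraries.

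Few abundant transcripts had a decrease of this size. Of 98 genes with a mean CPM at least that of Hspb1, itself included, 26 were called lower and 11 higher, and 4 of the 26 had a log2 fold change as low as that of Hspb1 or lower. The others were Cd24a itself and the γ-crystallin genes Cryga and Crygf. Over all abundances Hspb1 ranked 12 by p among the 514 genes called lower, and 135 of those had a fold change as low or lower. In the authors' deposited table Hspb1 had a fold change of -1.97 with a q-value of 4.40e-13, where 7.02% of the tested genes had a q-value under 0.05. That fold is short of the 2-fold limit of the authors' list, which held 1.63% of the tested genes.

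The genomic sequence before the start of Hspb1 is shown because 2 of its stretches match an inverted pair of the unit that is repeated in the heat shock element. That element is the binding motif of heat shock factors. The 250 bases before the annotated start were read from RefSeq (GRCm38.p6) for 7 of the 9 genes, all but Cryab and Hspb2. They were searched for GAANNTTC and TTCNNGAA, inverted pairs of the unit that heat shock factors bind. Longer runs of the unit were not searched for. Each motif reads the same on both strands. Capitals mark the matches, and the windows of Hspb6 (the second of its 2 annotated starts) and Cryaa are given beside it for comparison.
Hspb1, chr5:135887669-135887918, plus strand: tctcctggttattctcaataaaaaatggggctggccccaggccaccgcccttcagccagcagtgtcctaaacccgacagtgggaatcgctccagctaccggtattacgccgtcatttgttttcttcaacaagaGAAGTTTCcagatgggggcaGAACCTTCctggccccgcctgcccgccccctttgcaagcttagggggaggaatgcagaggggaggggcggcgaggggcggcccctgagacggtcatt
Hspb6, chr7:30553051-30553300, plus strand: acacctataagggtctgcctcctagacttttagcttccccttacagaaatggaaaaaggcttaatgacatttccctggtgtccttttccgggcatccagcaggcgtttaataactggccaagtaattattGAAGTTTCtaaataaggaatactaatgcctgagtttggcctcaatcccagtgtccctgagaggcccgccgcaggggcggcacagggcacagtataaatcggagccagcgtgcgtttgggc
Cryaa, chr17:31677681-31677930, plus strand: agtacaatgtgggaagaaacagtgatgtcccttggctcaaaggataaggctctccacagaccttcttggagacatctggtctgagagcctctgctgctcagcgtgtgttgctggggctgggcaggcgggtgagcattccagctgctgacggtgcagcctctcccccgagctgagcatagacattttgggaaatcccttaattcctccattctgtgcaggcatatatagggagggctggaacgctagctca

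Hspb1 held GAANNTTC at 2 places, GAAGTTTC starting 117 bases and GAACCTTC starting 97 bases before the start, which do not overlap. The same letters GAAGTTTC occur 120 bases before the second start of Hspb6, and GAATTTTC occurs 224 bases before the start of Hspb3. The windows of Cryaa, Hspb7, Hspb8, Hspb11 and the first start of Hspb6 held no GAANNTTC, and no window that was read for a member held TTCNNGAA. Cryab and Hspb2 had no window to search. Among 32851 annotated windows of the same length 6.69% held GAANNTTC, 0.228% held it at least 2 times, and 7.17% held TTCNNGAA. A match is a description of the letters and was not tested as a binding site.

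Hspb8 and Hspb6 belong to the more widely expressed members and were close to the lower end of detection. Hspb8, which works with the co-chaperone BAG3 to pass misfolded proteins to autophagy, had 11, 9 and 17 counts in knockout libraries, against 21, 33 and 24 in wild-type libraries. In CPM this was 1.98, 1.41 and 3.13 in knockout libraries, against 2.99, 5.21 and 3.88 in wild-type libraries. The groups overlapped by the highest knockout and the lowest wild-type library. Its log2 fold change of -0.90 (SE 0.35) was near that of Hspb1 but missed the threshold (unadjusted p = 0.018, edgeR adjusted p = 0.14), where 10.7% of all tested genes were lower with an unadjusted p up to 0.05. The 95% interval, from 32.3% to 89.0% of the wild-type level, is wide, and the coefficient of variation between libraries was 40.3% in knockout and 27.7% in wild-type lenses where counting error alone gives 28.5% and 19.6%.

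Hspb6, or Hsp20, is known for its part in smooth muscle relaxation. It had 5.94, 6.58 and 5.70 CPM in knockout libraries, against 7.12, 5.05 and 4.53 CPM in wild-type libraries, all on 28 to 50 counts. All 3 knockout values fell inside the wild-type range. The log2 fold change was 0.12 (SE 0.23, edgeR adjusted p = 0.84), and the 95% interval ran from 77.7% to 151.7% of the wild-type level. Its annotated exons share 122 bases with Proser3 on the opposite strand, which had 11 to 14 counts in knockout and 13 to 20 in wild-type libraries.

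Hspb2 and Hspb3, whose products form a joint complex in muscle, were detected at levels far below those of the α-crystallins and Hspb1. Hspb2 had 12.95, 11.3 and 12.9 CPM in knockout libraries, against 12.4, 11.4 and 11.8 CPM in wild-type libraries. The groups overlapped, with a log2 fold change of 0.06 (SE 0.15, edgeR adjusted p = 0.89) and a 95% interval from 83.8% to 128.9% of the wild-type level. Hspb2 lies head to head with Cryab on the opposite strand and shares 252 exonic bases with it in GENCODE M21. Its counts were 0.035% ± 0.002 of the Cryab counts in knockout and 0.031% ± 0.003 in wild-type lenses (SD, n = 3 each), and reads from the shared bases make its value uncertain in the same way.

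Hspb3 had 3.60, 4.07 and 3.49 CPM in knockout libraries, against 3.85, 5.21 and 2.43 CPM in wild-type libraries, and all 3 knockout values lay inside the wild-type range. Its log2 fold change was -0.04 (SE 0.30, edgeR adjusted p = 0.96), with a 95% interval from 62.8% to 151.0% of the wild-type level, and its sign changed between alternatives. Of 15 skeletal and heart muscle markers 3 were tested. None was called by edgeR, by DESeq2 or by limma-voom, and 0 had an unadjusted p up to 0.05, and Actc1, Mb and Tnnt3 had 0 counts. Their summed level was 7.36 to 13.8 CPM in knockout and 10.3 to 11.2 CPM in wild-type libraries, led by Ttn at 3.45 ± 1.96 and 3.78 ± 0.68 CPM and Ckm at 2.24 ± 0.25 and 3.31 ± 0.64 CPM (SD, n = 3 each).

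Hspb11 encodes IFT25, which pairs with IFT27 in the IFT-B complex that carries cargo in cilia. It had 20.7, 21.5 and 23.4 CPM in knockout libraries, against 18.9, 17.4 and 22.2 CPM in wild-type libraries, with an overlap through wild-type replicate 3. The log2 fold change was 0.16 (SE 0.12, edgeR adjusted p = 0.50), and the 95% interval ran from 94.3% to 133.2% of the wild-type level. Its partner Ift27 was at 8.80 ± 1.48 CPM in knockout and 10.02 ± 1.97 CPM in wild-type lenses (SD, n = 3 each), at log2 -0.18 (adjusted p = 0.68). Where 3.02% of all tested genes were called higher and 4.48% lower, 1 of 19 tested IFT-B genes and partners was called, higher, and 0 lower. It was Ift57, another IFT-B subunit, at 65.8 ± 1.83 CPM in knockout and 51.5 ± 1.53 CPM in wild-type lenses (log2 0.35, SE 0.07, adjusted p = 0.0033), called under all 17 alternatives. The median of these genes was 0.04.

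Of 31 tested chaperones and co-chaperones, 2 were called higher and 3 lower and 26 did not pass, where 3.02% of all genes were called higher and 4.48% lower. The list is mainly cytosolic but includes the mitochondrial chaperonin genes Hspd1 and Hspe1, neither of which was called. The 31 genes had a median log2 fold change of -0.04. With library size alone 3 were called higher and 2 lower, and in the 4 libraries with Ddx3y reads 0 were called higher and 2 lower. Dnaja4, a J-domain co-chaperone, fell to 14.1 ± 1.82 CPM in knockout lenses, against 24.0 ± 1.62 CPM in wild-type lenses (log2 -0.75, SE 0.12, edgeR adjusted p = 0.000386). Dnajb2, a J-domain co-chaperone that also binds ubiquitin, fell to 73.2 ± 7.31 CPM, against 98.2 ± 4.04 CPM in wild type (log2 -0.43, SE 0.07). Ahsa1, an activator of the HSP90 ATPase, was at 41.9 ± 3.59 CPM in knockout and 53.1 ± 0.80 CPM in wild-type lenses (log2 -0.34, SE 0.08). Its call was lost under 4 of 17 alternatives (adjusted p = 0.060 to 0.12), among them leaving out knockout replicate 3. Hsp90ab1, the constitutive cytosolic HSP90, was called higher at log2 0.22, and the call was lost under 2 alternatives (adjusted p = 0.051 and 0.077), both of which leave out wild-type replicate 3.

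Of 9 genes of the HSPB8-BAG3 pathway 1 was called higher, where 3.02% of all tested genes were, and 0 lower, with a median of 0.03. It was Hspa8, the constitutive HSP70 that receives clients from HSPB8 and BAG3, at 2595 ± 181 CPM in knockout and 2256 ± 92.8 CPM in wild-type lenses (log2 0.20, edgeR adjusted p = 0.041). Its call was lost under 7 of 17 alternatives (adjusted p = 0.064 to 0.17), 4 of which leave out 1 library. Bag3 itself was at 25.8 ± 1.31 and 27.1 ± 1.11 CPM (log2 -0.07, adjusted p = 0.75).

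Genes that act on the small heat shock proteins from above mostly did not pass, where 4.48% of all tested genes were called lower and 3.02% higher. Of 4 tested heat shock factors and regulators 0 were called by edgeR, by DESeq2 and by limma-voom, and 0 had an unadjusted p up to 0.05, while 1 was called higher with library size alone. Hsf4, the heat shock factor of the lens, was at 170.1 ± 15.2 CPM in knockout and 159 ± 3.91 CPM in wild-type lenses (log2 0.10, SE 0.07, adjusted p = 0.45), and Hsf1 at 8.86 ± 0.12 and 9.50 ± 1.54 CPM (log2 -0.11). Of 15 transcription factors known to act on crystallin genes Sox1 alone was called, lower at log2 -0.24 (99.9 ± 3.29 CPM in knockout and 118 ± 3.57 CPM in wild type), and this call was lost under 9 of 17 alternatives (adjusted p = 0.051 to 0.22), including leaving out any knockout library or wild-type replicate 1 or 2. With library size alone 1 of these factors was called higher and 0 lower. Of 9 tested kinases that act on HSPB1 and αB-crystallin directly or through other kinases, 1 was called. This was Mapk14, which encodes the p38α kinase upstream of MAPKAPK2. Mapk14 fell to 44.5 ± 5.54 CPM in knockout lenses, against 62.8 ± 3.26 CPM in wild-type lenses (log2 -0.50, SE 0.09, adjusted p = 0.000908), and was called under all 17 alternatives. Mapkapk2 had a log2 fold change of -0.20 (SE 0.12, adjusted p = 0.41), and the list's median was -0.15.

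**Figure D4:**
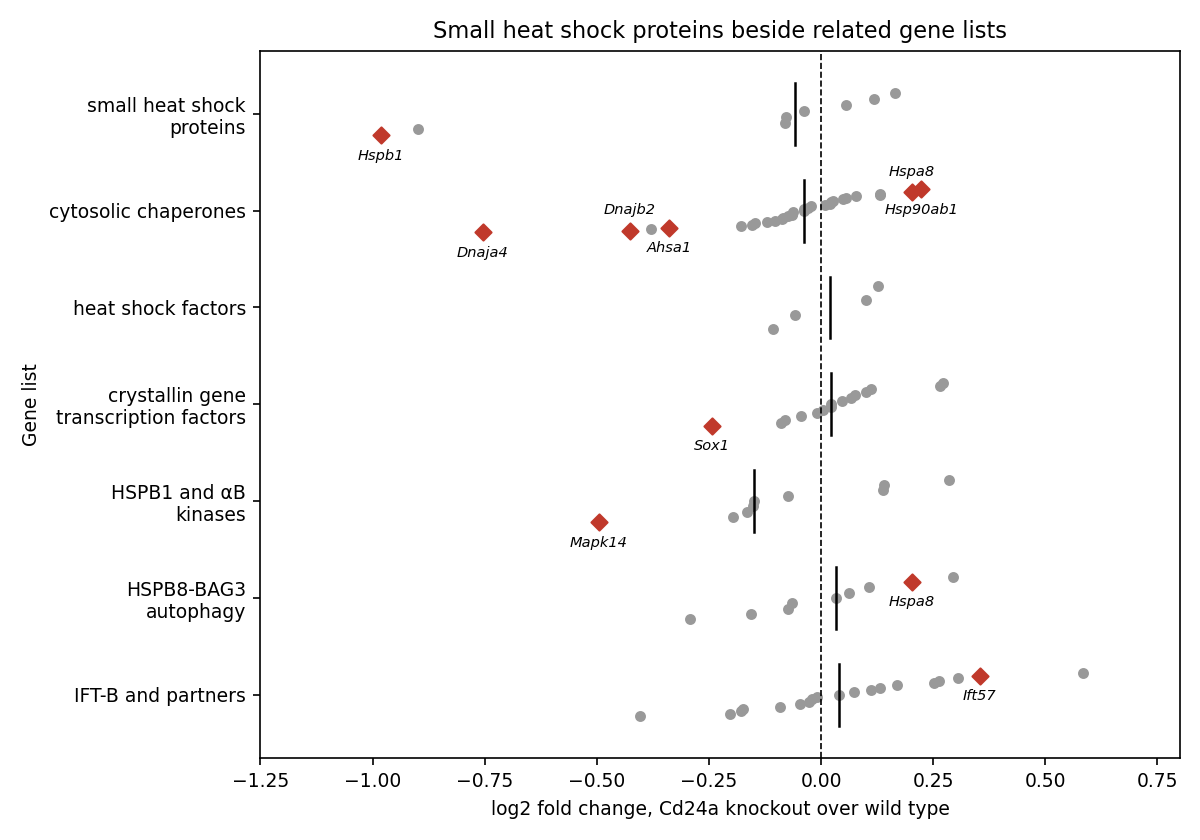
Log2 fold change, knockout over wild type, of each tested gene of the small heat shock protein family and of 6 related lists, with red diamonds for called genes, which are named, grey circles for the others and black lines for the medians. Hspb1 lies lowest of all genes drawn, and the called genes of the other lists are between -0.75 and 0.35. The list drawn as cytosolic chaperones includes the mitochondrial Hspd1 and Hspe1.

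Some markers of the lens and of tissues next to it were lower in the knockout, as Hspb1 was. Over all tested genes 4.48% were called lower and 3.02% higher. The 11 lens markers summed to 26203 to 29028 CPM in knockout and 29737 to 31242 CPM in wild-type libraries. Of the 10 tested, 3 were called lower, Bfsp2 (log2 -0.27), Grifin (log2 -0.50) and Birc7 (log2 -0.97), with 4 called lower in the 4 libraries with Ddx3y reads. Bfsp1, the most abundant of them, was not called (log2 -0.10). These values depend on the scaling. With library size alone Bfsp1 was at log2 0.01, the list's median was -0.01, and 1 lens marker was called higher and 3 lower. Pigment epithelium and iris markers summed to 16.8 to 31.6 CPM in knockout and 40.2 to 65.5 CPM in wild-type libraries, with 3 of 6 tested genes called lower, Ttr at 9.24 ± 3.78 and 19.9 ± 5.84 CPM and Rgr at 3.95 ± 1.75 and 10.7 ± 2.51 CPM being the most abundant (SD, n = 3 each). Corneal and surface epithelium markers summed to 56.9 to 75.4 CPM in knockout and 83.9 to 94.8 CPM in wild-type libraries, nearly all from Aldh3a1 at 65.4 ± 9.48 and 89.5 ± 5.71 CPM (called lower, the 1 tested of 5), while Krt13 was at 0.24 and 0.15 CPM and Krt12 had 0 counts. Smooth muscle and pericyte markers summed to 305 to 316 CPM in knockout and 393 to 426 CPM in wild-type libraries, with Acta2 at 239.9 ± 8.69 and 347 ± 13.9 CPM (called lower) and Pdgfrb at 66.7 ± 1.247 and 58.1 ± 3.97 CPM, and 1 of 4 tested genes called in each direction. Nearly all of this sum came from Acta2 and Pdgfrb. Of the untested markers, Actg2 had 0 counts and Cnn1, Des, Tagln and Myh11 had at most 16 in any library. Photoreceptor markers overlapped, at 153 to 277 CPM in knockout and 164 to 418 CPM in wild-type libraries, with 1 of 8 called lower, Gnat1 at 47.3 ± 17.2 and 83.0 ± 36.0 CPM, a call lost under 8 of 17 alternatives (adjusted p = 0.082 to 0.54). Over these alternatives 0 to 6 of the 8 were called lower, with 0 in the 4 libraries with Ddx3y reads, 5 with the replicate block or with no low-count filter, and 6 without wild-type replicate 2. Blood and leukocyte markers summed to 2.39 to 7.73 CPM in knockout and 1.10 to 1.78 CPM in wild-type libraries, and none of 8 had enough reads to be tested. The most abundant were Hbb-bs, at 1.89 ± 1.95 CPM in knockout lenses and 0 counts in wild-type lenses, and Ptprc at 0.53 ± 0.77 and 0.68 ± 0.54 CPM. The part of these lens genes and tissues in the level of Hspb1 was not tested.

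The genes whose log2 CPM followed Hspb1 most closely over the 6 libraries, among those with a mean of at least 10 CPM, were Cpt2 (Pearson r = 0.997), Trafd1 (r = 0.997), Tle3 (r = 0.995), Npnt (r = 0.994) and Yaf2 (r = 0.994). These are descriptions over 6 libraries that share the genotype difference, with no test. Cpt2, a carnitine palmitoyltransferase of mitochondria, was at 136 ± 6.91 CPM in knockout and 200.4 ± 12.96 CPM in wild-type lenses, and Npnt, the matrix protein nephronectin, at 69.0 ± 2.88 and 95.8 ± 4.21 CPM. The choice by r with Hspb1 over the same libraries fixed their direction in advance, so their lower level in the knockout is no separate result. The 5 differed by a smaller factor than Hspb1, at log2 -0.56 to -0.25, and 4 were called, all but Yaf2 (edgeR adjusted p = 0.055).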

How the data were processed

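The sources used here do not give how the authors aligned and counted reads or whether they used the strand. HISAT2, HTSeq, edgeR and build GRCm39 are listed, with no version or role, per the submitters' processing notes. Raw read counts by gene were deposited on Ensembl release 104 features, as the authors' own description states, with an exon-union length (bp) and a GC fraction per feature that the authors also deposited. Their deposited comparison table gives a signed fold change (a score never between -1 and 1), p-values from edgeR, Storey q-values and group mean FPKM values. No per-sample column was left unmapped.

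Counts were filtered with filterByExpr, scaled by TMM and tested with the edgeR 4.0.16 quasi-likelihood test in R 4.3.3 (limma 3.58.1). P-values were two-sided and adjusted by Benjamini-Hochberg over 11474 genes, at 0.05. The SE was taken as the absolute log2 fold change over root F, and intervals are at 95%. FPKM is CPM per kilobase of the deposited length. The common biological coefficient of variation was 7.19%. P-values measure the spread between 3 samples per group. No replicate pair agreed within sampling noise (chi-square over its degrees of freedom was at least 2.61). Overlaps come from GENCODE M21 (GRCm38) by Ensembl identifier and sequences from RefSeq (GRCm38.p6), another build than the counts. The fit was tested on simulated counts. Alternatives were other scalings and filters, limma-voom, DESeq2 1.42.0, the exact test of edgeR, the replicate number as a block, each library left out and, chosen after seeing the data, the 4 libraries with Ddx3y reads.

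The members, gene lists and tests were chosen with earlier results of these data known. All members, up to 4 called genes of each list by size of change, the 2 most abundant genes of each marker list of another tissue, and the 5 genes most like Hspb1 by Pearson r are named, except 1 marker gene that is not reported here. Other genes were chosen after their values were seen: Lim2, Foxe3, Bfsp2, Grifin, Birc7, Bfsp1, Ift27, Bag3, Hsf4, Hsf1, Mapkapk2, Hspd1, Hspe1, Cryga, Crygf, Proser3, Gm50222, Xist, Ddx3y, Hspb9, Odf1, Cnn1, Des, Tagln, Myh11 and the markers with 0 counts (Actc1, Mb, Tnnt3, Krt12, Actg2).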

Additional observations from a re-analysis of the deposited data

How the results depend on the processing

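Hspb1 was called lower under all 17 alternatives, at log2 fold changes from -1.12 to -0.87 and adjusted p of at most 3.02e-05, and no other member was called under any of them. Hspb8 stayed negative throughout (-1.27 to -0.65, adjusted p = 0.073 to 0.40), and Hspb2 and Hspb11 stayed positive. With library size alone the log2 fold changes of Cryaa, Cryab and Hspb3 turned to 0.031, 0.027 and 0.077, and Hspb3 was at 0.027 with limma-voom. When each library was left out in turn, Hspb3 ranged from -0.27 to 0.24, Hspb6 from -0.0069 to 0.34 and the log2 difference of the Cryaa to Cryab ratio from -0.0051 to 0.015, all without a call. The number of genes called was 1344 with library size alone and 562 to 782 without a library, lowest without knockout replicate 1, where the main count was 861. The cause was not tested, except that fewer samples entered the fits without a library. The 4 libraries with Ddx3y reads gave 650 calls.

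With the replicate number as a block, 781 genes were called and Hspb1 was at log2 -0.98 (adjusted p = 2.36e-07). Over all tested genes the deviations of same-numbered libraries correlated at -0.03 to 0.05, against -0.08 to 0.04 for libraries with different numbers. Not every library correlated best with its own number. A correlation over all genes cannot exclude a pairing, and the Cryaa to Cryab ratio fell from replicate 1 to 3 in both groups. The permutation tests of the ratios did not pair libraries. Depth limits Hspb8, Hspb3 and Hspb6, whose group totals were 37 to 110 counts.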

Other observations

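Hspb1 had a coefficient of variation of 11.99% in knockout and 10.7% in wild-type lenses, above counting error alone at 2.03% and 1.36%. Hspb2, at 7.63% and 4.34%, lay below counting error alone at 11.8% and 11.4%. Hspb11 had 6.29% in knockout lenses, below counting error at 8.90%, and 12.5% in wild-type lenses, above it at 8.89%. Hspb3 had 8.29% in knockout and 36.4% in wild-type lenses, where counting error alone gives 21.5% and 20%.

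Besides the 9 members, the family genes Hspb9 and Odf1, known from testis, had 2 and 1 counts in all 6 libraries together.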
